A study of Mus musculus with 8 samples.

Results

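The genes described here are transcription factors and chromatin-bound proteins of naive pluripotency, namely *Zfp42*, *Tfcp2l1*, *Klf2*, *Klf5*, *Tbx3*, *Prdm14* and *Nr5a2*, together with the developmental pluripotency-associated genes *Dppa2* and *Dppa4* and the kinase co-activator *Tcl1*. They were chosen by name, 10 in all. The processed table of 18990 genes was searched for these symbols, and 8 of the 10 were analysed here, while *Dppa2* and *Tcl1* were not analysed here. Of the 8 genes, 5 had a mean of at least 1 CPM (reads on a gene scaled to the size of the library) over the 8 libraries and were tested with the other genes above that level, 13866 in all. *Zfp42*, *Dppa4* and *Prdm14* were below it and are given by their reads.

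Naive pluripotency is the state of the mouse embryonic stem cell and of the pre-implantation epiblast. It is held by a network of transcription factors that work beside OCT4, SOX2 and NANOG. LIF, through JAK and STAT3, feeds into some of the KLF factors and TFCP2L1. WNT signalling, imitated by inhibition of GSK3, relieves repression of *Esrrb* and *Tfcp2l1*. Several of these factors also have roles in other tissues, so their RNA in a culture of fibroblasts is not by itself a sign of pluripotency.

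The data are RNA-seq of wild-type BL6 mouse embryonic fibroblasts (MEFs), a primary and mixed cell population. The MEFs of all groups were transduced with a lentiviral tet-STEMCCA cassette (*Oct4*, *Sox2*, *Klf4* and c-*Myc*, OSKM) and rtTA at an MOI of 1. They were then transfected with 40 nM of a pool of 3 siRNAs against either *Ncor1*, a corepressor subunit, or *Oct4*. Reprogramming followed in medium with 2 µg/mL doxycycline, which switches the cassette on, 3 µM chiron, a GSK3 inhibitor, 0.25 µM of the TGFβ inhibitor Alk5i, 50 µg/mL ascorbic acid and LIF. Cells were collected after 3 or 6 days, which with both siRNA pools gives 4 groups of 2 libraries each. Libraries of a non-targeting siRNA and of fibroblasts before induction were not analysed here, so no value below is a change against untreated cells. The study calls the replicates biological, and the labels do not say whether they came from separate cultures. The p-values therefore set a difference only against the spread between these libraries, estimated over the 4 groups together.

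Depth ranged from 7735742 to 16445192 reads on genes per library, at which 3 reads equal 0.174 to 0.380 CPM. The lowest depth belonged to replicate 2 of *siOct4* at day 3. At day 3 the target *Ncor1* stood at 135 and 146 CPM in *siNcor1* libraries and at 226 and 245 CPM in the others, a log2 difference of 0.74 ± 0.12 (SE, adjusted p = 0.0139 by limma) that lost significance without any 1 of the 4 day 3 libraries (adjusted p of 0.0617 to 0.132). At day 6 the *Ncor1* ranges overlapped. *Pou5f1*, the gene of OCT4, stood at 185 and 197 CPM in the *siOct4* libraries against 197 and 205 CPM in *siNcor1* at day 3. On day 6 the values were 700 and 501 CPM against 187 and 160 CPM. These reads include those of the cassette. At day 3 *Pou5f1* was slightly lower where *Oct4* was targeted, a log2 difference of −0.08 ± 0.16 that did not pass (adjusted p = 0.941 by limma). Its interval ran from −0.42 to 0.26, so a modest reduction at day 3 is not excluded. At day 6 *Pou5f1* was higher there by 1.78 on the log2 scale (adjusted p = 0.000109 by limma). Earlier days were not analysed here. The libraries in which *Oct4* was targeted are called "labelled *siOct4*" throughout, and every direction below is that of the label. The other cassette genes behaved alike, with *Sox2*, *Klf4* and *Myc* higher by 1.63, 1.67 and 1.59 on the log2 scale at day 6 in libraries labelled *siOct4* and differing by 0.05, −0.07 and −0.05 at day 3, where none of them passed the test. Fibroblast markers, 13 of 13 detected, summed to between 3019 and 12577 CPM in every library. In such bulk samples, fewer cells of a type and less RNA per cell cannot be told apart.

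The genes were first divided into those on at day 3, with at least 1 CPM in all 4 libraries of that day, and those newly detected, with less than 1 CPM in all 4 and at least 1 CPM in both libraries of a day 6 group. *Klf5*, *Tbx3*, *Klf2* and *Tfcp2l1* were on at day 3, 4 genes of the 8. *Nr5a2* was above 1 CPM in 3 of the 4 day 3 libraries and therefore in neither class. *Zfp42*, *Dppa4* and *Prdm14* stayed under 1 CPM in all 8 libraries, so 0 genes were newly detected. At a level of 5 CPM only *Klf5* and *Tbx3* were on at day 3.

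Levels were compared between genes as CPM per kb of exonic length. *Klf5* was the highest in all groups, with means from 6.24 CPM per kb in the day 6 libraries labelled *siOct4* to 7.95 in *siNcor1* at day 3. *Tbx3* followed with group means between 2.03 and 4.57 CPM per kb. *Klf2* came next, with 1.70 to 3.09 CPM per kb. In the day 6 libraries labelled *siOct4* the ranges of *Tbx3*, *Klf2* and *Nr5a2* overlapped with their neighbours in this order, and elsewhere the 5 tested genes kept separate ranges. The lower places changed hands. At day 3 *Nr5a2* (0.668 ± 0.321 CPM per kb, SD, n = 2) stood above *Tfcp2l1* (0.357 ± 0.042) in *siNcor1* libraries and below it in those labelled *siOct4* (0.126 ± 0.065 against 0.710 ± 0.020). At day 6 *Tfcp2l1* was above *Nr5a2* in *siNcor1* (2.02 ± 0.09 against 1.42 ± 0.15) and below it in the libraries labelled *siOct4* (0.343 ± 0.053 against 1.07 ± 0.20).

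**Figure D1:**
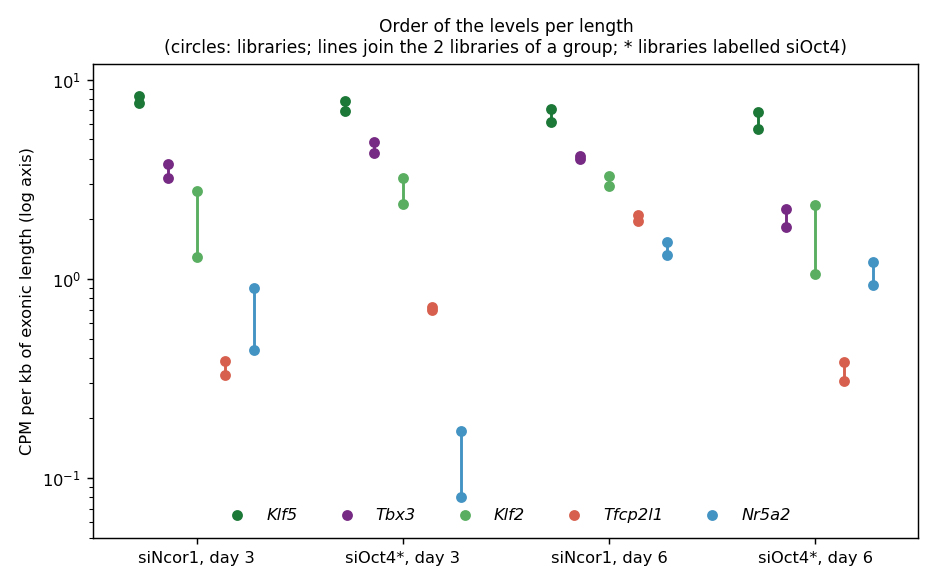
Level per length of the 5 tested genes, as CPM per kb of exonic length on a log axis, in the 4 groups along the horizontal axis. Circles are libraries and lines join the 2 libraries of a group. *Klf5* is at the top in all groups, and *Tfcp2l1* and *Nr5a2* exchange places between the groups.

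*Tfcp2l1* encodes a grainyhead-family factor that acts downstream of both LIF and GSK3 inhibition in embryonic stem cells. It showed the largest difference of the tested genes between the siRNA groups at day 6. The gene lies at chr1:118627945-118685168 on the plus strand of GRCm38, with 9438 bp of exons, and the small nuclear RNA gene *Gm23497* overlaps them on the same strand. The 250 bases before its RefSeq start site (chr1:118627695-118627944, GRCm38.p6) are shown because of that difference. Capitals mark matches to the KLF and SP box CCNCNCCC, the box bound by KLF4, KLF2 and KLF5.

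Tfcp2l1: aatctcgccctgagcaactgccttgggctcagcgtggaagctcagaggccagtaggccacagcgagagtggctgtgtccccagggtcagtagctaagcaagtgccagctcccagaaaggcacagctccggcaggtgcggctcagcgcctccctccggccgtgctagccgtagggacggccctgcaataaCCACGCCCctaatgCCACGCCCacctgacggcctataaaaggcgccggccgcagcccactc

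The box occurs at 2 places, from −61 to −54 and from −47 to −40 counted from the start site as 0. Of the 32851 promoter windows of 300 bases in the RefSeq table, 49.5% hold it, so its presence does not set *Tfcp2l1* apart. The window holds 21 CG dinucleotides, against a median of 7, and no match to the octamer ATGCAAAT, the E-box CACGTG, the STAT element TTCNNNGAA or the NR5A and ESRR element AAGGTCA. All motifs were searched on both strands, and a match describes letters and not a bound site.

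*Tfcp2l1* stood at 3.09 and 3.65 CPM in *siNcor1* libraries at day 3, which is 50 and 63 reads. It stood at 6.57 and 6.83 CPM in libraries labelled *siOct4* at day 3. The ranges were separate, with the libraries labelled *siOct4* higher by 0.97 ± 0.21 on the log2 scale, and the difference missed the threshold (adjusted p = 0.0504). Over the other settings the adjusted p ran from 0.0431 after median centring to 0.0801 with no filter on low genes, with 0.0442 under a block for the replicate number, and leaving out 1 library at a time gave 0.0153 to 0.304.

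By day 6 the order had turned. *Tfcp2l1* reached 19.7 and 18.4 CPM in *siNcor1* libraries and fell to 3.59 and 2.89 CPM in those labelled *siOct4*, with 34 reads in each of the latter. It was thus 5.71-fold lower in the libraries labelled *siOct4* (log2 fold change −2.51 ± 0.21, SE, adjusted p = 9.31e-05). From day 3 to day 6 it rose by 2.45 ± 0.21 on the log2 scale in *siNcor1* libraries (adjusted p = 1.91e-05). In those labelled *siOct4* it fell by 1.03 on the log2 scale (SE 0.21, adjusted p = 0.00141). The change of the siRNA difference between the days was −3.48 ± 0.29 (adjusted p = 0.00024). These 4 calls held in every alternative that included the gene and without any 1 library.

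*Nr5a2* encodes LRH-1, an orphan nuclear receptor that binds near *Pou5f1* and is also used in liver, pancreas and gonads. It occupies chr1:136842571-136960448 on the minus strand of GRCm38 and has 2 RefSeq promoter windows, which are shown because this gene had the largest difference of the tested genes at day 3 and its start sites differ in make-up. The first set of 250 bases lies at chr1:136960449-136960698 and the second at chr1:136953631-136953880, both on the minus strand, with the same box in capitals.

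Nr5a2, upstream start: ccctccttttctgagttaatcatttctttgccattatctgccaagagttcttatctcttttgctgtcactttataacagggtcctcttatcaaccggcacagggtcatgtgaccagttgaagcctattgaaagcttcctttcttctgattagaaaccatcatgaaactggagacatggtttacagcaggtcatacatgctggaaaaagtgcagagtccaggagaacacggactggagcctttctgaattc

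Nr5a2, downstream start: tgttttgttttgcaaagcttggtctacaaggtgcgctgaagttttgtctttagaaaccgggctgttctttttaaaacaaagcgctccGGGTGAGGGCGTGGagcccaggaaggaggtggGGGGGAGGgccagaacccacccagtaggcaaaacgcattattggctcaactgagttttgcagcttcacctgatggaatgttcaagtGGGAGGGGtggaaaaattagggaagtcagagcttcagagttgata

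The upstream window held no match to any of the motifs and 2 CG dinucleotides. The downstream window held 4 matches to the KLF and SP box, of which the first pair overlap, and 7 CG. Gene-level reads do not tell which start was used.

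At day 3 *Nr5a2* stood at 2.60 and 5.28 CPM in *siNcor1* libraries. It stood at 0.474 and 1.01 CPM in libraries labelled *siOct4*, from 7 and 8 reads. Both of the latter were below both of the former, and the log2 fold change was −2.20 ± 0.37 (4.59-fold lower, adjusted p = 0.019). The call was lost without *siNcor1* replicate 1, *siNcor1* replicate 2 or replicate 1 of the libraries labelled *siOct4* (adjusted p of 0.0654, 0.258 and 0.105), and in a fit without the variance trend (0.0792).

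At day 6 *Nr5a2* stood at 7.77 and 8.99 CPM in *siNcor1* libraries and at 5.50 and 7.13 CPM in those labelled *siOct4*. Although the ranges did not overlap, the difference of −0.41 ± 0.37 did not pass (adjusted p = 0.427, 95% interval −1.22 to 0.40). The rise from day 3 to day 6 was 2.93 ± 0.37 on the log2 scale in libraries labelled *siOct4* (adjusted p = 5.61e-05), and this call held in all alternatives and without any 1 library. In *siNcor1* libraries the rise was 1.14 ± 0.37 (adjusted p = 0.0316), a call that was lost without *siNcor1* replicate 1 of day 3 (log2 fold change 0.65, adjusted p = 0.274) and without either *siNcor1* library of day 6 (0.0921 and 0.145). The siRNA difference changed by 1.79 ± 0.52 between the days (adjusted p = 0.0323), and adjusted p was 0.0536 to 0.163 in 5 of the 8 fits that left out 1 library.

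*Tbx3* encodes a T-box repressor that links LIF signalling to *Nanog* and is also expressed in limb and other mesenchyme of the embryo. It lies at chr5:119670669-119684724 on the plus strand of GRCm38. The antisense gene *Tbx3os1* overlaps its exons, and since the sources used here do not say whether reads were counted by strand, reads of the pair cannot be told apart. At day 3 *Tbx3* stood at 24.9 and 21.1 CPM in *siNcor1* libraries and at 28.5 and 32.1 CPM in those labelled *siOct4*, separate ranges whose difference of 0.40 ± 0.16 did not pass (adjusted p = 0.346). By day 6 the values were 27.4 and 26.3 CPM in *siNcor1* libraries and 14.8 and 12.1 CPM in libraries labelled *siOct4*. The day 6 libraries labelled *siOct4* were the lowest of all 8, and *Tbx3* was 2.00-fold lower there than in *siNcor1* (SE 0.16 on the log2 scale, adjusted p = 0.00117).

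Over time *Tbx3* did not pass the test in *siNcor1* libraries (0.23 ± 0.16, adjusted p = 0.287). It fell in libraries labelled *siOct4*, by 1.17 on the log2 scale (SE 0.16, adjusted p = 8.74e-05). The change of the siRNA difference was −1.40 ± 0.22 (adjusted p = 0.00191). These 3 calls held in every alternative and without any 1 library.

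*Klf2* and *Klf5* encode zinc-finger factors that overlap in function with the cassette factor KLF4 in embryonic stem cells. *Klf2* (chr8:72319033-72321656, plus strand, GRCm38) is also a flow-responsive gene of endothelium, and *Klf5* (chr14:99298691-99315036, plus strand) is active in epithelium and the early embryo. *Klf2* stood at 5.07 and 2.38 CPM in *siNcor1* libraries at day 3, and at 4.40 and 5.95 CPM in those labelled *siOct4*. On day 6 these values were 6.03 and 5.38 CPM against 4.33 and 1.95 CPM. The day 6 ranges were separate and the day 3 ranges overlapped.

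No comparison of *Klf2* passed the test. The day 6 difference was −0.93 ± 0.39 (adjusted p = 0.0913, 95% interval −1.79 to −0.08, unadjusted), and its change between the days was −1.47 ± 0.55 (adjusted p = 0.0797). The values depended on single libraries. Without replicate 1 of the day 6 libraries labelled *siOct4* the day 6 difference was −1.48 (adjusted p = 0.0134), and without replicate 2 it was −0.38 (adjusted p = 0.463). The change had an adjusted p of 0.0115 without that replicate 1, 0.0412 without replicate 1 of *siNcor1* at day 3, and 0.0444 with a block for the replicate number.

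*Klf5* had the narrowest span of group means among the 5 tested genes, from 5.02 to 5.37 log2-cpm. It stood at 43.2 and 39.5 CPM in *siNcor1* libraries at day 3 and at 40.8 and 36.2 CPM in libraries labelled *siOct4*. At day 6 it stood at 31.9 and 36.8 CPM in *siNcor1* libraries and at 35.6 and 29.3 CPM in the others. The siRNA groups overlapped at both days. The siRNA difference was −0.10 ± 0.15 at day 3 and −0.09 ± 0.15 at day 6 (adjusted p = 0.910 and 0.689), with 95% intervals of −0.42 to 0.21 and −0.40 to 0.23. Over time *Klf5* differed by −0.27 ± 0.15 in *siNcor1* libraries and by −0.25 ± 0.15 in those labelled *siOct4* (adjusted p = 0.175 and 0.169).

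For comparison, *Klf4*, whose reads include the cassette, stood at 441 and 421 CPM in *siNcor1* libraries at day 6 and at 1684 and 1119 CPM in those labelled *siOct4*. *Klf2* and *Klf5* thus gave no call in the comparison where *Klf4* was 1.67 ± 0.18 higher on the log2 scale (adjusted p = 0.000261).

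**Figure D2:**
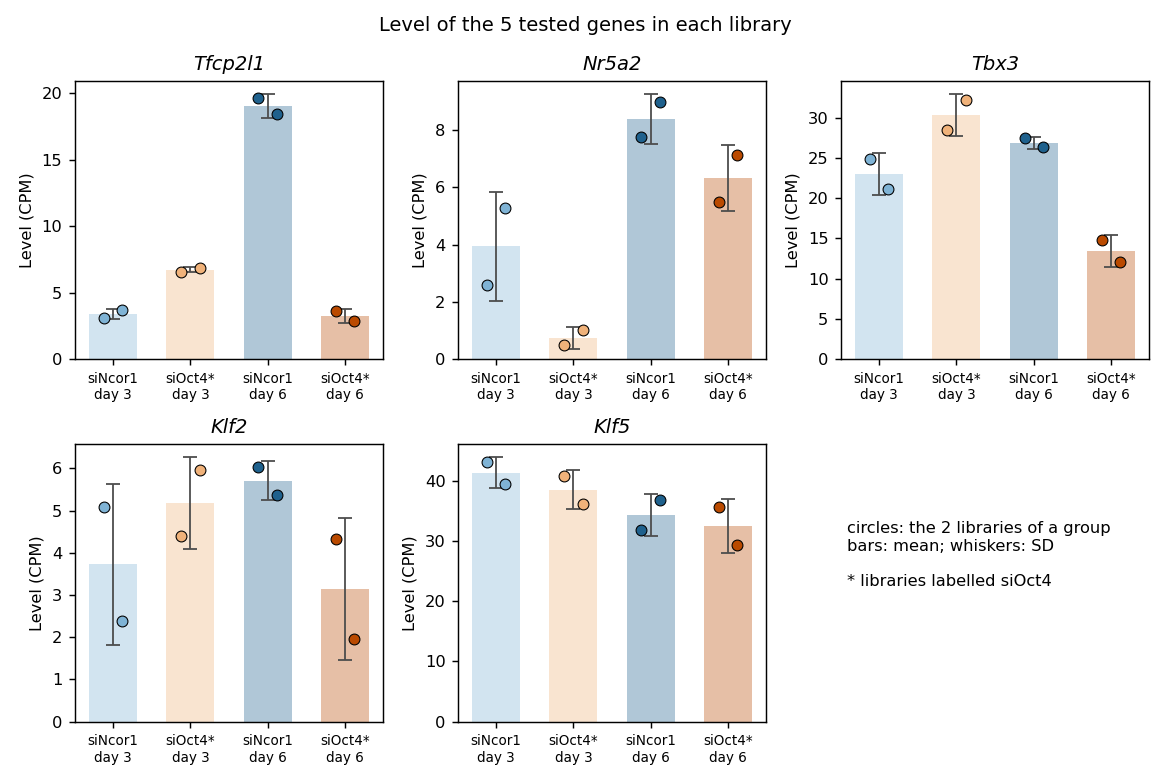
Level in CPM of the 5 tested genes (panels, linear axes from 0) in the 4 groups along the horizontal axis. Circles are the 2 libraries of a group, bars their mean and whiskers the SD. *Tfcp2l1* is highest in *siNcor1* libraries at day 6 (19.7 and 18.4 CPM), *Nr5a2* is lowest in the day 3 libraries labelled *siOct4*, *Tbx3* is lowest in the day 6 libraries of that label, and *Klf5* shows overlapping siRNA groups at both days.

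Among these genes, *Zfp42*, *Dppa4* and *Prdm14* were near the limit of detection. *Zfp42* encodes REX1, a zinc-finger protein whose loss marks the exit from the naive state. The gene lies at chr8:43295063-43306980 on the minus strand of GRCm38. It had 0 reads in all 4 libraries of day 3, 2 and 3 reads in *siNcor1* libraries at day 6, and 1 read in each of the day 6 libraries labelled *siOct4*. Its promoter is printed because it is the one among those given that holds the octamer, which POU factors such as OCT4 bind. The 250 bases lie at chr8:43307010-43307259 on the minus strand of GRCm38.p6, with the octamer and the KLF and SP boxes in capitals.

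Zfp42: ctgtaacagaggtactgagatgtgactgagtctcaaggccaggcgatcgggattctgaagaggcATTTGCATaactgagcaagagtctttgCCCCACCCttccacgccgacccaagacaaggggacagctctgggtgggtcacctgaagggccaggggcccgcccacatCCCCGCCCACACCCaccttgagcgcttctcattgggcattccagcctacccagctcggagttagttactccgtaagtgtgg

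The octamer, on the reverse strand, runs from −186 to −179, and 1.74% of all windows hold one. The window holds 4 KLF and SP boxes, of which 3 fall in the printed part, and the last pair there overlap. E-boxes, STAT elements and the NR5A and ESRR element, found in 7.15%, 8.30% and 4.72% of all windows, were not found. *Klf2* was the remaining gene with a window, and 4 matches to the KLF and SP box, in overlapping pairs, and 32 CG were found in it.

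*Dppa4* encodes a SAP-domain protein that works as a partner of DPPA2 on young retrotransposons, bivalent promoters and early embryonic genes. It lies at chr16:48283733-48294237 on the plus strand of GRCm38. No reads were found in the 4 libraries of day 3. At day 6 it had 4 and 2 reads in *siNcor1* libraries and 0 and 2 reads in those labelled *siOct4*. *Prdm14*, a PR-domain repressor of FGF signalling and DNA methylation, lies at chr1:13113457-13127163 on the minus strand. It had 0 reads in both *siNcor1* libraries at day 3 and 0 and 1 in those labelled *siOct4*. On day 6 the reads were 3 and 2 against 2 and 1.

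A single library held at most 4 reads on any of these 3 genes, or 0.330 CPM. Summed over the 3 genes, day 3 gave 0 reads in *siNcor1* libraries and 1 in those labelled *siOct4*, and day 6 gave 16 and 7. A count of 0 allows up to 3 reads, or 0.174 to 0.380 CPM depending on the library, so absence cannot be stated at this depth and no fold change is given. These limits cover counting error only.

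**Figure D3:**
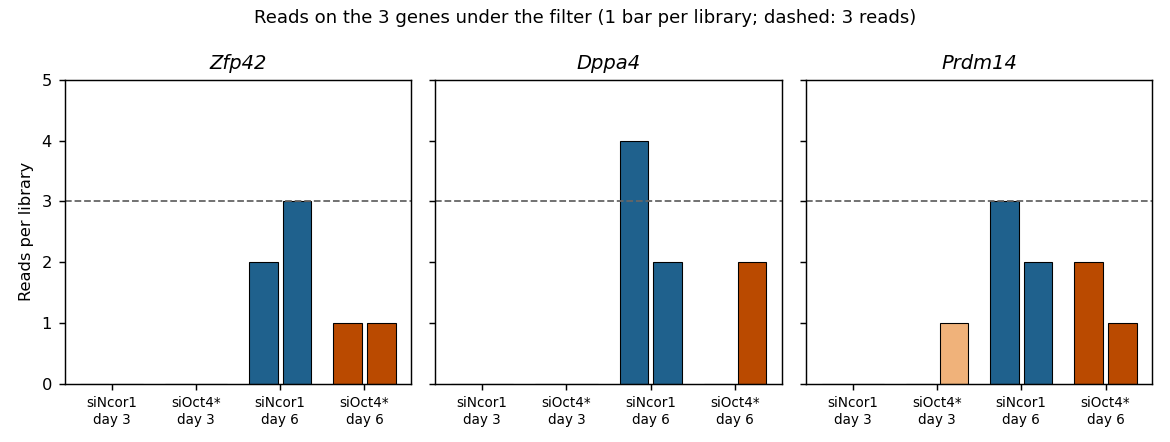
Reads per library on *Zfp42*, *Dppa4* and *Prdm14* (panels) in the 4 groups along the horizontal axis, with 1 bar per library and a dashed line at 3 reads. Only 1 library, *siNcor1* replicate 1 at day 6 for *Dppa4*, is above the line.

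Counted over the 5 tested genes and set beside all 13866 genes, the siRNA comparison at day 3 called 1 (*Nr5a2*), against 1.07% of all genes. At day 6 it called 2 (*Tfcp2l1* and *Tbx3*, both lower in libraries labelled *siOct4*), against 30.7%. Day 6 against day 3 called 2 in *siNcor1* libraries (*Tfcp2l1* and *Nr5a2*, higher), against 34.8%, and 3 in those labelled *siOct4* (*Nr5a2* higher, *Tfcp2l1* and *Tbx3* lower), against 52.7%. The change of the siRNA difference called 3 (*Tfcp2l1*, *Tbx3* and *Nr5a2*), against 20.7%. The shares at day 6 and over time lie near the background and say nothing particular about these genes. With only 5 genes tested, the counts at day 3 and for the change are too small to read as a trait of the set. The comparisons share libraries and are not independent of each other.

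**Figure D4:**
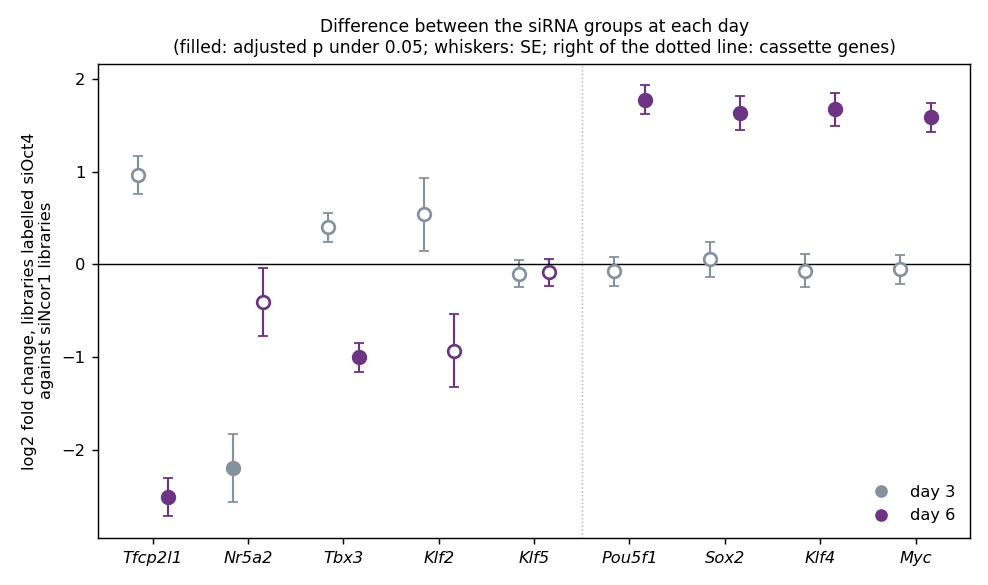
Log2 fold change of libraries labelled *siOct4* against *siNcor1* libraries at day 3 and day 6 (vertical axis) for the 5 tested genes and, right of the dotted line, the 4 cassette genes. Whiskers are SE and filled circles passed an adjusted p of 0.05 by limma. *Tfcp2l1* moves from 0.97 at day 3 to −2.51 at day 6, while the cassette genes move from near 0 to between 1.59 and 1.78.

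Across the 8 libraries the tested genes did not follow a common pattern. As a description, Pearson's r of log2-cpm was highest between *Klf2* and *Tbx3* (0.75) and lowest between *Klf5* and *Nr5a2* (−0.52), and *Tfcp2l1* and *Nr5a2* gave 0.17. The genes outside the set with the pattern most like *Tfcp2l1* were *Robo1*, a guidance receptor (r = 0.98), *Ror2*, a WNT5A receptor (0.98), and the collagen gene *Col27a1* (0.98). For *Nr5a2* they were *Nfasc* (0.97), *Prss16* (0.97) and *Zfp3* (0.96). For *Tbx3* they were *Inf2*, *Slc39a13* and *Furin* (1.00, 0.99 and 0.99). *Klf2* was closest to *Lzts2*, *Zfpm1* and *Zfp36l1* (0.96, 0.95 and 0.95), and *Klf5* to *Alkbh5*, *Smap1* and *1110051M20Rik* (0.97, 0.94 and 0.94). These coefficients rest on 8 libraries in 4 groups, and an r over 0.9 with *Tbx3* was reached by 4.0% of all tested genes.

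Other genes of the pluripotency network gave a wider view. Of 24 listed genes, 22 were tested. In *siNcor1* libraries 14 rose from day 3 to day 6 and 2 fell, where 13.8% of all genes rose and 20.9% fell. In libraries labelled *siOct4* 17 rose and 0 fell by limma (0 also at an unadjusted p and by voom), where 22.2% of all genes rose and 30.5% fell. The median log2 change was 1.48 and 1.62, against −0.07 and −0.08 over all genes. A gene without reads at day 3, such as *Dppa3*, could pass the filter only through day 6. The counts of rises and these medians therefore depend in part on the filter. Between the siRNA groups at day 6, 9 were lower and 1 higher in libraries labelled *siOct4*, with a median of −0.63 against −0.03 for all genes, of which 18.6% were lower and 12.1% higher. The split of all genes depends on scaling, with 1678 higher and 2573 lower as deposited but 1171 and 3090 with library totals without normalization factors. *Dppa3*, a maternal-effect gene that protects DNA methylation, had 0 reads in all libraries of day 3. On day 6 it stood at 6.44 and 7.65 CPM in *siNcor1* libraries and at 0.740 and 1.87 CPM in those labelled *siOct4* (log2 fold change −2.43 ± 0.51, adjusted p = 0.00489 by limma). The gene reached the mean of 1 CPM needed for testing only through those *siNcor1* libraries, so the call depends on the group in which it was high. Without replicate 2 of *siNcor1* at day 6 the *Dppa3* call was lost (−2.31, adjusted p = 0.0693). *Jarid2*, a subunit of PRC2, was lower by a mean of 52.3 against 33.5 CPM (−0.64 ± 0.13, adjusted p = 0.00389). *Mybl2*, a cell-cycle factor, was higher, at 117 and 96.8 CPM against 59.3 and 44.7 CPM (1.05 ± 0.16, adjusted p = 0.00112). At day 3, 3 of the 22 were called by limma, all lower in libraries labelled *siOct4*, against 1.07% of all genes called in either direction. They were *L1td1*, *Nanog* and *Fgf4*, named after their values were seen. Voom called 2 lower and 0 higher. With an unadjusted p under 0.05, 12 were lower and 1 higher, and the median was −0.52 against −0.02 for all genes.

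LIF and WNT pathway genes, which include inputs to *Tfcp2l1*, gave 0 calls of 15 at day 3 by limma, against 1.07% of all genes. There was 1 gene lower at an unadjusted p under 0.05, and voom on the recovered reads gave 0 calls. At day 6, 9 of the 15 were lower and 2 higher in libraries labelled *siOct4*, with a median of −0.65, where 18.6% of all genes were lower and 12.1% higher. *Axin2*, a direct WNT target, stood at a mean of 45.8 CPM in *siNcor1* and 18.2 CPM in libraries labelled *siOct4* (−1.32 ± 0.16, adjusted p = 0.000379). *Il6st*, the gp130 subunit of the LIF receptor, stood at 179 and 84.3 CPM (−1.10 ± 0.14, adjusted p = 0.00044). *Pim3*, a STAT3-target kinase, was higher (0.77 ± 0.13, adjusted p = 0.00195), as was *Lef1*, a WNT effector (0.88 ± 0.21, adjusted p = 0.00931). The *Lef1* call was lost without replicate 2 of *siNcor1* at day 6 (adjusted p = 0.0626).

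Formative and primed genes were sparse, with 9 of 12 listed in the table and 5 tested. At day 6 *Sall2* was lower in libraries labelled *siOct4* (−0.70 ± 0.14, adjusted p = 0.00403) and was the 1 call of that list, where 30.7% of all genes were called, and without replicate 2 of *siNcor1* at day 6 it was lost (adjusted p = 0.0543). Of the 15 genes listed as targets of DPPA2 and DPPA4, 0 were analysed here.

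The paralogues of *Klf2*, *Klf5* and *Tbx3* moved in both directions. Of 22 listed, 18 were tested, and at day 6 3 were higher and 6 lower in libraries labelled *siOct4*, a median of −0.28, where 12.1% of all genes were higher and 18.6% lower. *Klf6*, an immediate-early KLF gene, stood at a mean of 68.9 CPM in *siNcor1* libraries and 26.2 CPM in the others (−1.40 ± 0.14, adjusted p = 0.000196). *Tbx5*, a limb and heart T-box gene, was lower as well (−1.12 ± 0.25, adjusted p = 0.00675), while *Klf8* (0.96 ± 0.18, adjusted p = 0.00265) and *Klf16* (0.82 ± 0.17, adjusted p = 0.00491) were higher. The *Klf16* call was lost without replicate 2 of *siNcor1* at day 6 (adjusted p = 0.0624). At day 3, 0 of the 18 were called by limma, against 1.07% of all genes, 0 reached an unadjusted p under 0.05 and 0 were called by voom.

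Markers of some other cell types also differed between the siRNA groups. Germ cell, blood, endothelial and muscle markers, with 1, 3, 2 and 2 tested, gave 0 calls at day 6 by limma, against 30.7% of all genes. They also gave 0 by voom and 0 at an unadjusted p under 0.05. At day 6 the summed level of the 13 fibroblast markers was 5444 to 5877 CPM in *siNcor1* libraries and 3019 to 3202 CPM in those labelled *siOct4*, and 10 of the 13 were called lower, as *Tbx3* and *Tfcp2l1* were and as 18.6% of all genes were. At day 3 the order was the opposite, with 7942 to 8044 CPM in *siNcor1* libraries and 10578 to 12577 CPM in those labelled *siOct4*. On that day 0 of the 13 were called by limma, against 1.07% of all genes. At an unadjusted p under 0.05, 6 were higher, and 2 were called higher by voom. The 9 epithelial markers summed at day 6 to 711 to 750 CPM in *siNcor1* libraries and 319 to 354 CPM in those labelled *siOct4*. Of these markers, 6 of 9 were called lower, against 18.6% of all genes. At day 3 they summed to 93.9 to 94.9 CPM in *siNcor1* libraries and 38.6 to 46.5 CPM in libraries labelled *siOct4*, again with 6 of 9 called lower by limma and 4 by voom, against 1.07% of all genes called in either direction, where *Nr5a2* was also lower and *Tfcp2l1* was not. Trophoblast markers, 7 of 9 in the table, summed to 52.3 to 52.8 CPM in *siNcor1* libraries at day 6 and 13.9 to 16.3 CPM in those labelled *siOct4*. Of the 4 tested, 3 were called lower, against 18.6% of all genes. At day 3 the trophoblast markers summed to 7.11 to 9.22 CPM over all libraries, with *Cdx2* at 0 reads. On day 6 none of the 7 was at 0 in both libraries of a group. From day 3 to day 6, 4 of the 4 tested were called higher in *siNcor1* libraries, against 13.8% of all genes. In libraries labelled *siOct4*, 2 were higher and 1 lower, against 22.2% and 30.5% of all genes. A marker low at day 3 may have passed the filter only through day 6, so these counts depend in part on the filter. Over all libraries germ cell markers summed to 1.39 to 2.22 CPM and blood markers to 5.39 to 12.1 CPM. Endothelial markers summed to 42.7 to 46.5 CPM at day 3 and 21.1 to 23.5 CPM at day 6, with overlapping ranges of the siRNA groups on both days. Muscle markers summed to 29.8 to 66.3 CPM in *siNcor1* libraries and 67.5 to 86.8 CPM in those labelled *siOct4* at day 3, and to 20.6 to 24.4 CPM and 14.2 to 18.0 CPM at day 6. The part of these cell types, and of the cassette level, in the results on *Tfcp2l1*, *Tbx3* and *Nr5a2* was not tested.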

How the data were processed

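RNA was measured in 8 libraries, 2 for each of 2 siRNA pools at 2 days, and groups come from the labels. The authors deposited log2 values, log2-cpm per gene, from reads aligned with STAR 2.5.2b to mm10 and converted with edgeR 3.20.9, per the labels. The counting tool is not given in the sources used here. Subtracting 0.136 CPM, the linear value of the lowest entry, gave whole reads for 100% of values within 0.1 read. Genes (18969 of 18990) were matched to GENCODE M21 on GRCm38 by identifier, and promoter windows (5 for 4 of the 8 genes analysed) are RefSeq, GRCm38.p6.

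The 13866 genes that averaged 1 CPM or more were fitted together with limma 3.58.1 in R 4.3.3 (lmFit, eBayes with trend, all 4 groups, two-sided), and p was adjusted by Benjamini-Hochberg over all of them at 0.05. Fold changes are on the deposited scale, whose constant shrinks those of low genes. Intervals of 95% are limma's, not adjusted. Libraries of one group were not copies of each other (chi-square divided by its degrees of freedom 9.48 to 21.3 over genes), so each counted as 1 replicate. *Gm26917* took 15.5% to 16.6% of reads at day 3. On day 6 it took 21.7% and 20.3% in *siNcor1* libraries and 29.1% and 23.9% in those labelled *siOct4*, so its share differed between the groups compared.

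The genes described and the gene lists were chosen with earlier results of these data known. Named list genes are up to 2 per direction with the smallest p at day 6, and similar genes the 3 with the highest r. Alternatives were other scalings, filters, constants, a block for replicate number, fits of fewer groups, voom on recovered reads and leaving out each library. Figures used matplotlib 3.10.9.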

Additional observations from a re-analysis of the deposited data

Results flagged for a closer look

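The difference between libraries labelled *siOct4* and *siNcor1* libraries was tested for a change from day 3 to day 6, and it changed in 3 of the 5 tested genes. The log2 change was −3.48 for *Tfcp2l1* (adjusted p = 0.00024, limma), −1.40 for *Tbx3* (0.00191) and 1.79 for *Nr5a2* (0.0323). For *Nr5a2* the difference was present at day 3 and smaller at day 6, on 7 and 8 reads in the day 3 libraries labelled *siOct4*, and the call on its change was lost in 5 of the 8 fits that leave out 1 library (adjusted p of 0.0536 to 0.163). For *Tfcp2l1* the sign of the estimate turned, with libraries labelled *siOct4* higher in both replicates at day 3 and lower in both at day 6. The day 3 difference by itself did not pass the test (0.97 ± 0.21, adjusted p = 0.0504 by limma).

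The same test passed for the cassette genes *Pou5f1* (1.85), *Sox2* (1.58), *Klf4* (1.74) and *Myc* (1.64), and for *Ncor1* (−0.79). Among the named list genes it passed for *Mybl2* (1.16), *Pim3* (0.70), *Lef1* (1.25) and *Klf8* (0.99). In the other direction it passed for *Dppa3* (−2.43), *Axin2* (−0.82), *Il6st* (−1.07), *Sall2* (−0.73), *Klf6* (−1.48) and *Tbx5* (−1.24). The value of *Dppa3* is that of its day 6 difference, since it had 0 reads at day 3, and is not a separate result. Leaving out 1 library at a time, the call was lost in 7 of 8 fits for *Dppa3* (adjusted p of 0.0548 to 0.153), in 5 each for *Pim3* (0.0598 to 0.118), *Klf8* (0.0540 to 0.101) and *Tbx5* (0.0811 to 0.109), in 4 each for *Axin2* (0.0528 to 0.123) and *Sall2* (0.0557 to 0.112), and in 2 for *Lef1* (0.0504 and 0.0682). Without the trend in the fit, *Pim3* (0.0601) and *Axin2* (0.0572) were lost as well. Of all 13866 genes, 20.7% passed it.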

How the results depend on the processing

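Of 280 refits of single genes and comparisons under other settings, 271 kept direction and side of the threshold, and 176 of 200 did without 1 library. The number of the described genes called at day 3 between the siRNA groups (1) was 0 without the variance trend, 0 at a mean of at least 10 CPM, 2 after median centring and 2 with the replicate block, and 0 to 2 without 1 library. At a mean of at least 10 CPM, which leaves *Klf5* and *Tbx3* in the test, the counts were 1 at day 6, 0 over time in *siNcor1*, 1 over time in libraries labelled *siOct4* and 1 for the change of the difference. The count over time in *siNcor1* (2) was 1 without the trend and 1 after quantile normalization. Without 1 library the counts ranged from 2 to 3 at day 6, 1 to 2 and 3 to 5 over time, and 2 to 4 for the change. At 5 CPM 2 genes were on at day 3, and 4 at 0.5 CPM. *Nr5a2* lost its call on the change of the difference without the trend (adjusted p = 0.0715) and with 1 CPM added (0.0579). Signs turned only for values near 0, namely *Klf5* at day 6 (−0.226 to 0.0555 without 1 library), its change of the difference (−0.0355 without normalization factors, −0.122 to 0.159 without 1 library), *Sox2* (−0.0308 to 0.138), *Klf4* (−0.165 to 0.0277) and *Myc* (−0.110 to 0.00436) at day 3, and *Ncor1* at day 6 (0.00615 after quantile normalization, −0.139 to 0.0542 without 1 library). The replicate numbers are shared labels, and the deviations of same-numbered libraries correlated between −0.04 and 0.28 with 2 pairs per comparison. With the block, calls over all genes rose from 148 to 222 at day 3, and of the described genes *Tfcp2l1* at day 3 (adjusted p = 0.0442) and the change of *Klf2* (0.0444) passed. Without 1 library, all-gene calls ranged from 3 to 375 at day 3, from 1398 to 4669 at day 6 and from 1009 to 3667 for the change, and without the trend they were 43 at day 3. Voom on the recovered reads called 158 at day 3 and 4238 at day 6. Leaving *Gm26917* out of the totals moved the median change over time in libraries labelled *siOct4* from −0.08 to 0.06 and its split from 3079 higher and 4233 lower to 3815 and 3441. Where an arm kept 1 library, that library was assumed to vary like the other groups. Depth limits *Zfp42*, *Dppa4*, *Prdm14* and the day 3 value of *Nr5a2*. The causes of these dependences were not tested.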
